A study of Mus musculus with 12 samples.

Results

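Signals of 38 cell cycle and DNA damage checkpoint genes were measured in cultured mouse peritoneal macrophages (PMs). The genes were chosen by function from a list of 41 that holds mitotic regulators, cyclins and cyclin-dependent kinases (CDKs), replication and deoxynucleotide genes, cell cycle transcription factors, checkpoint and repair genes and genes of the p53 axis. Of 18193 genes measured on the arrays, these 38 were each read by the probe set (a group of short probes for 1 transcript) with the highest mean over all arrays. *Ccnb1*, *H2afx* and *Trp53* had no probe set that carried their symbol alone and were not analysed here.

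PMs were transfected with antagomir-21, an oligonucleotide directed against miR-21, with a scramble control oligonucleotide or with lipofectamine, the transfection reagent, and were then exposed to exosomes, small secreted vesicles, from sensory neurons that overexpressed miR-21 or carried a GFP reporter. The 6 groups, with 2 Affymetrix mouse arrays each, were antagomir-21 with miR-21 exosomes, antagomir-21 with GFP exosomes, scramble with miR-21 exosomes, scramble with GFP exosomes, lipofectamine with miR-21 exosomes and lipofectamine with GFP exosomes. All groups thus received the reagent and exosomes, and PMs without either were not analysed here. The lipofectamine groups were read as cells given no oligonucleotide. PMs were lavage cells that had adhered to the dish, so the arrays read the mixed RNA of all adherent cells, and fewer cycling cells cannot be told apart from less RNA per cycling cell. Mouse strain and age are not given in the labels of these arrays. The methods state triplicates for each condition, of which 2 arrays per group were analyzed, and a further replicate was not analysed here. The level of miR-21 itself was not analysed here.

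A dividing cell passes through DNA synthesis and mitosis under the control of CDKs, kinases that are active only when bound by a cyclin. The transcription factor E2F1 drives genes of DNA synthesis and FOXM1 drives genes of mitosis, and many mitotic genes carry a CHR element together with CCAAT boxes in their promoters. DNA damage activates the kinases ATM and ATR, which signal through CHK2 and CHK1 to halt the cycle, while BRCA1, BRCA2 and FANCD2 serve repair. Resident PMs are long-lived cells that renew themselves by a low rate of local division. miR-21 is known as a growth-associated miRNA in many tumors.

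The sequence that antagomir-21 is directed against and 3 promoters of mitotic genes, whose signals are set side by side below, are given for orientation. They were taken from RefSeq (GRCm38.p6), and capitals mark the seed (bases 2 to 8) in the miRNA and CHR or CCAAT words in the promoters.
miR-21a-5p, chr11:86584120-86584141, - strand: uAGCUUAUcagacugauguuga
*Mki67* promoter, chr7:135716330-135716629, - strand: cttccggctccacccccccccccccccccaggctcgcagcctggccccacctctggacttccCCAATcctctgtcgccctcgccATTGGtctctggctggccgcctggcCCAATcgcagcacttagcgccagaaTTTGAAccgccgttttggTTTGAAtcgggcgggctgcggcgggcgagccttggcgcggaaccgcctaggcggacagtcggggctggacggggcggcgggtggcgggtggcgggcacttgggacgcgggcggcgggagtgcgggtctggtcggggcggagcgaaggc
*Top2a* promoter, chr11:99024140-99024439, - strand: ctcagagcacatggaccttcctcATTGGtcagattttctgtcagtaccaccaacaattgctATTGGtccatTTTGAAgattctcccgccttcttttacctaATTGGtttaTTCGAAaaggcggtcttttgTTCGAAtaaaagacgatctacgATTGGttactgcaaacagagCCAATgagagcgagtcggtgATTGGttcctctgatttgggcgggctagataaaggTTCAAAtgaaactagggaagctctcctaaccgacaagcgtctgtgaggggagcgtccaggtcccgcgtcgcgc
*Kif11* promoter, chr19:37376132-37376431, + strand: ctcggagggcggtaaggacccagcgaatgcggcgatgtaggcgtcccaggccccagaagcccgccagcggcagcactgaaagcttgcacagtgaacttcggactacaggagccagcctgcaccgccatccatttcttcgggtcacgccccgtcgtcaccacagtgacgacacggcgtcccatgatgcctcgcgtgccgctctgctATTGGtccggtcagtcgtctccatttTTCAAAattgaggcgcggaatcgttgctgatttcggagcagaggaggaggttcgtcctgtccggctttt
Promoter windows of 300 bases around the annotated start were held for 33 of the 38 genes and for 27025 genes in all. The CHR words TTTGAA and TTCGAA were found on either strand in 14 of the 33 windows (42.4%), against 19.4% of all windows. CCAAT was found in 25 of 33 (75.8%), against 37.9% of all windows. The E2F words TTTGGCGC, TTTCCCGC, TTTCGCGC and TTTGCCGC were found in 8 of 33 (24.2%), against 2.32% of all windows, and none of these lay in the 3 promoters shown. The *Top2a* window held 4 CHR words and 6 CCAAT boxes, the *Mki67* window 2 and 3, and the *Kif11* window 1 and 1. Such matches describe the letters of the windows and do not show that a factor binds there.

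Replicate arrays correlated at a mean of 0.591 over the 6 pairs within groups, against 0.602 over the 60 pairs between groups. Lower quartiles of the arrays ran from 5.28 to 7.04 on the log2 scale and medians from 7.92 to 8.58. The deposited log2 values fell into 2 humps, a lower one with its peak between 4.5 and 5.0 and an upper one between 8.0 and 8.5, and the trough between them at 6.75, which was set after the values had been seen, is used below to describe single values. Macrophage markers were present: all 10 of 10 stood above the near-background limit defined below, led by the lysozyme gene *Lyz2* at 16.94, and their mean ran from 10.6 to 12.2 over the arrays. Of markers of other cells, 3 of 5 for B cells (*Ms4a1* at 12.41, *Pax5* at 5.96), 3 of 5 for mast cells (*Cpa3* at 10.02), 5 of 10 for mesothelium and fibroblasts, 2 of 6 for granulocytes, 2 of 5 for dendritic cells, 2 of 6 for neurons and glia and 1 of 7 for T and NK cells lay above that limit. It was also passed by 54.0% of all genes and, as it was set at their upper quartile, by 8 of 32 genes of distant organs, so such counts do not show that a cell type was present. By array, the mean of the B cell markers ran from 7.56 to 9.71 and that of the mesothelial and fibroblast markers from 6.54 to 8.76. The part of other cells in the signals below was not tested.

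Cell cycle genes were not uniformly low in these PMs. The median of the 38 mean signals was 8.38, against 7.91 over all genes, with 23 genes at or above and 15 below the median of all genes. Probe sets differ in brightness, so such ranks describe signals and not numbers of transcripts. Reading each gene by its brightest probe set can also raise genes with several probe sets above the rest. Such genes made up 28 of the 38, against 9010 of all 18193. With the mean of all probe sets the medians of the 38 and of all genes lay closer together, as given in the last section. The part of this choice in the contrasts with all genes, here and at the trough below, was not tested. A near-background limit of 7.72 was taken as the 75th percentile of the mean signals of 32 genes of distant organs, which had a median of 6.91 and ran from 5.40 to 9.91. In all, 13 of 38 genes (34.2%) had a mean at or below the limit, where 46.0% of all genes lay. Each of these 13 still lay above it on 2 to 9 of the 12 arrays. *Bub1b* was the last gene below it (7.68) and *Rrm1* the first above it (7.82).

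**Figure D1:**
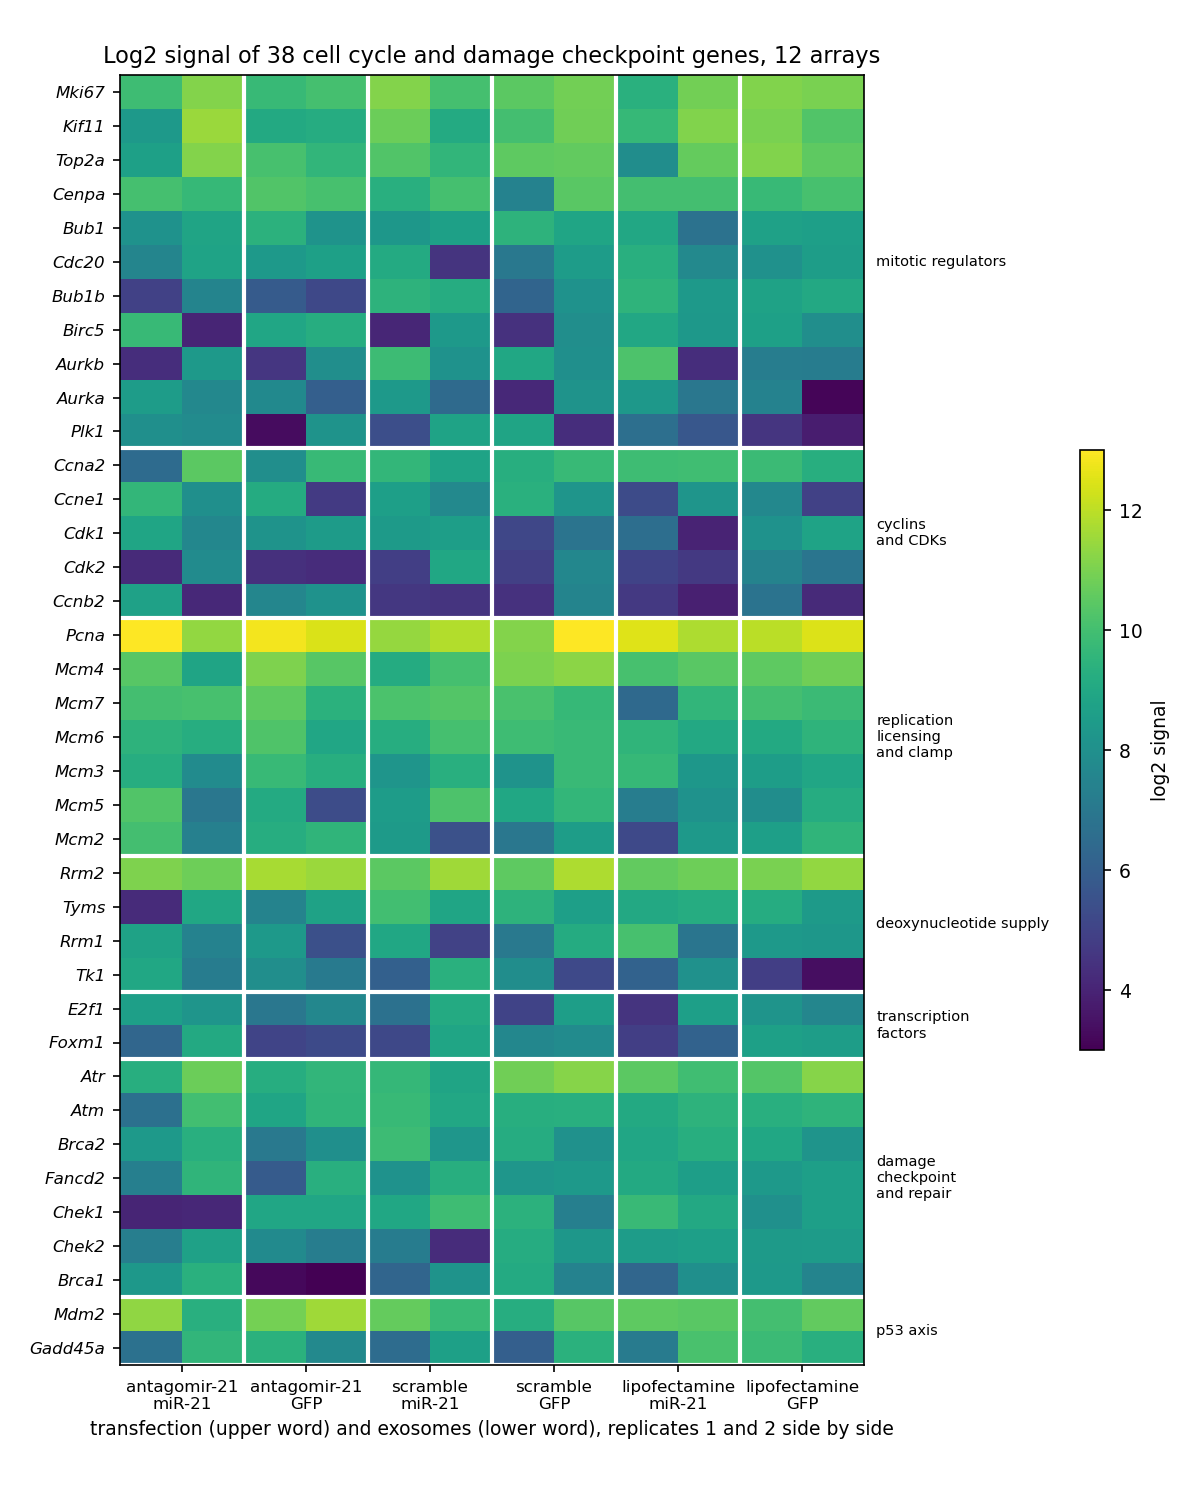
Log2 signal (color scale) of the 38 genes (rows, by role and falling mean) on 12 arrays (columns, replicates 1 and 2 side by side for each group). *Pcna* (mean 12.16) and *Rrm2* (11.10) are bright on every array, whereas *Ccnb2* (5.77) and *Cdk2* (5.92) are dark on most.

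Of 456 single values of these genes, 76 (16.7%) lay below the trough, against 25.7% of the values of all genes. By array, 2 to 11 of the 38 genes lay below it. Values stayed above it on all arrays for 13 genes, namely *Mki67*, *Top2a*, *Bub1*, *Kif11*, *Cenpa*, *Mcm3*, *Mcm4*, *Mcm6*, *Pcna*, *Rrm2*, *Brca2*, *Atr* and *Mdm2*, which is 34.2% of these genes against 27.3% of all genes. In 17 genes 1 to 3 arrays lay below, and in 8 genes 4 to 8 arrays did. No gene was below the trough on 9 or more arrays, as 5.40% of all genes were. By class, the median SD within groups was 0.76 for the 13 genes, 1.53 for the 17 and 1.64 for the 8. The classes and the SD rest on the same values, and values on both sides of the trough widen the spread. Part of this order is therefore fixed by the definition of the classes. The median SD within groups was 1.12 over the 38 genes and 1.39 over all genes, and the median distance between the highest and the lowest group mean was 1.91 over the 38 genes and 2.43 over all genes.

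Mean signals of mitotic regulators ran from 6.28 to 10.47, and 5 of 11 were near background. *Mki67*, which encodes the proliferation marker Ki-67, was the brightest with a mean of 10.47 (SD 0.63, n = 12), above 88.6% of genes. After antagomir-21, *Mki67* was at 9.90 and 11.15 with miR-21 exosomes and 9.75 and 10.04 with GFP exosomes, after scramble at 11.13 and 10.03 with miR-21 exosomes and 10.48 and 10.86 with GFP exosomes, and after lipofectamine at 9.36 and 10.88 with miR-21 exosomes and 11.09 and 10.98 with GFP exosomes. Its values thus covered less than 2 log2 units, and the values of the groups overlapped in most pairs. *Plk1*, a kinase of mitotic entry, had the lowest mean of the class (6.28, SD 2.01). After antagomir-21, *Plk1* was at 8.0 and 7.83 with miR-21 exosomes and 3.34 and 8.13 with GFP exosomes, after scramble at 5.42 and 8.78 with miR-21 exosomes and 8.84 and 4.32 with GFP exosomes, and after lipofectamine at 6.64 and 5.73 with miR-21 exosomes and 4.55 and 3.81 with GFP exosomes. Values of *Plk1* fell on either side of the trough within 3 of the 6 groups. *Kif11*, a spindle motor, *Top2a*, which untangles DNA, and *Cenpa*, a centromeric histone, averaged 10.08, 10.06 and 9.76. Further probe sets of *Top2a* averaged 7.57 and 6.34, both near background. *Aurka*, *Aurkb*, *Birc5* and *Bub1b*, genes of the spindle and its checkpoint, averaged 6.91 to 7.68 and were near background by their mean. *Cdc20* (8.02) and *Bub1* (8.57) were not. Single values lay above the limit on 5 of 12 arrays for *Aurka*, 7 for *Aurkb*, 9 for *Birc5* and 7 for *Bub1b*.

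Among cyclins and CDKs 4 of 5 were near background by their mean and 21 of 60 values lay below the trough. *Ccna2*, the cyclin of S and G2 phase, was the exception with a mean of 9.25 (SD 1.08, n = 12). After antagomir-21, *Ccna2* was at 6.49 and 10.48 with miR-21 exosomes and 7.93 and 9.73 with GFP exosomes, after scramble at 9.63 and 8.81 with miR-21 exosomes and 9.28 and 9.73 with GFP exosomes, and after lipofectamine at 9.91 and 9.91 with miR-21 exosomes and 9.83 and 9.29 with GFP exosomes. Only replicate 1 of antagomir-21 with miR-21 exosomes lay below the trough. *Ccnb2*, a mitotic cyclin, had the lowest mean of all 38 genes (5.77, SD 1.82). After antagomir-21, *Ccnb2* was at 8.74 and 4.16 with miR-21 exosomes and 7.60 and 8.11 with GFP exosomes, after scramble at 4.63 and 4.49 with miR-21 exosomes and 4.44 and 7.50 with GFP exosomes, and after lipofectamine at 4.65 and 3.86 with miR-21 exosomes and 6.81 and 4.20 with GFP exosomes. In *Ccnb2* 7 arrays lay below the trough, among them all 4 with miR-21 exosomes after scramble or lipofectamine, and both antagomir-21 arrays with GFP exosomes lay above it. The difference between scramble with miR-21 exosomes and antagomir-21 with GFP exosomes was −3.29 (SE 1.56, limma adjusted p = 0.726). It fell short of the unadjusted threshold in the main fit. It passed after quantile normalization (−3.91), after median centring (−3.64) and in an unpaired test on the compared arrays. *Cdk2* averaged 5.92, *Cdk1* 7.47 and *Ccne1*, a cyclin of S phase entry, 7.62. Single values lay above the near-background limit on 2 of 12 arrays for *Ccnb2*, 2 for *Cdk2*, 7 for *Cdk1* and 8 for *Ccne1*.

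By the probe sets used, genes of replication licensing and the sliding clamp were the brightest class, with 0 of 7 near background. Of their values, 4 of 84 lay below the trough. *Pcna*, the clamp of the replication machinery, had a mean of 12.16 (SD 0.68, n = 12), above 96.6% of genes. After antagomir-21, *Pcna* was at 13.14 and 11.39 with miR-21 exosomes and 12.84 and 12.42 with GFP exosomes, after scramble at 11.40 and 11.87 with miR-21 exosomes and 11.13 and 13.06 with GFP exosomes, and after lipofectamine at 12.51 and 11.76 with miR-21 exosomes and 11.96 and 12.48 with GFP exosomes. *Pcna* lay between 11.13 and 13.14 on every array, and the highest array of each exosome type was a replicate of a group whose other array was lower by more than 1. *Mcm2*, a subunit of the helicase that opens DNA for replication, was the lowest of the class at 8.12 (SD 1.57). After antagomir-21, *Mcm2* was at 10.02 and 7.35 with miR-21 exosomes and 9.25 and 9.54 with GFP exosomes, after scramble at 8.47 and 5.47 with miR-21 exosomes and 6.95 and 8.57 with GFP exosomes, and after lipofectamine at 5.21 and 8.36 with miR-21 exosomes and 8.66 and 9.56 with GFP exosomes. Values of *Mcm2* below the trough came from 1 scramble and 1 lipofectamine array, both with miR-21 exosomes. The other helicase subunits *Mcm3* to *Mcm7* averaged 8.46 to 10.34, and *Mcm6* had the smallest spread within groups of all 38 genes (SD 0.49). Further probe sets averaged 6.02 for *Mcm2*, 5.46 and 5.61 for *Mcm5*, 7.20 to 8.32 for *Mcm3* and 7.22 to 9.26 for *Mcm7*. Those of *Mcm4* (9.39) and *Mcm6* (8.64 each) lay above the near-background limit.

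Among genes of deoxynucleotide supply, *Rrm2*, the S phase subunit of ribonucleotide reductase, had a mean of 11.10 (SD 0.47, n = 12). After antagomir-21, *Rrm2* was at 11.05 and 10.79 with miR-21 exosomes and 11.69 and 11.51 with GFP exosomes, after scramble at 10.49 and 11.59 with miR-21 exosomes and 10.53 and 11.79 with GFP exosomes, and after lipofectamine at 10.59 and 10.79 with miR-21 exosomes and 10.97 and 11.37 with GFP exosomes. *Rrm2* lay between 10.49 and 11.79 on every array by the probe set used. Its further probe sets averaged 8.23 and 7.42, the latter near background. *Tk1*, the thymidine kinase of S phase, was the one gene of the class near background (6.85, SD 1.77). After antagomir-21, *Tk1* was at 8.98 and 7.20 with miR-21 exosomes and 7.93 and 7.13 with GFP exosomes, after scramble at 6.08 and 9.33 with miR-21 exosomes and 7.88 and 5.22 with GFP exosomes, and after lipofectamine at 6.16 and 8.06 with miR-21 exosomes and 4.84 and 3.39 with GFP exosomes. The lowest *Tk1* values were those of lipofectamine with GFP exosomes, and the difference of miR-21 against GFP exosomes there was 3.0 (SE 1.38, adjusted p = 0.999 in limma), short of the threshold also before adjustment but past it after quantile normalization (3.11). *Rrm1*, the other reductase subunit, averaged 7.82 and *Tyms*, the thymidylate synthase, 8.52.

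Both cell cycle transcription factors were near background by their mean, and 9 of their 24 values lay below the trough. Single values lay above the near-background limit on 6 of 12 arrays for *E2f1* and 5 for *Foxm1*. *E2f1* averaged 7.48 (SD 1.46, n = 12). After antagomir-21, *E2f1* was at 8.63 and 8.23 with miR-21 exosomes and 6.95 and 7.62 with GFP exosomes, after scramble at 6.72 and 9.12 with miR-21 exosomes and 4.99 and 8.59 with GFP exosomes, and after lipofectamine at 4.51 and 8.63 with miR-21 exosomes and 8.16 and 7.59 with GFP exosomes. The replicates of *E2f1* fell on either side of the trough in 3 groups, scramble with each exosome type and lipofectamine with miR-21 exosomes. *Foxm1* averaged 6.95 (SD 1.66), and its values are given with the exosome comparison.

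Damage checkpoint and repair genes were mostly above the limit, with 1 of 7 near background. *Atr*, the kinase of stalled replication forks, was the brightest at 10.10 (SD 0.79, n = 12). After antagomir-21, *Atr* was at 9.27 and 10.74 with miR-21 exosomes and 9.23 and 9.59 with GFP exosomes, after scramble at 9.67 and 8.85 with miR-21 exosomes and 10.83 and 11.17 with GFP exosomes, and after lipofectamine at 10.48 and 9.95 with miR-21 exosomes and 10.31 and 11.17 with GFP exosomes. After scramble both *Atr* values with miR-21 exosomes lay below both values with GFP exosomes. The share of all genes with such a gap was not counted. The difference was −1.75 (SE 0.89, limma adjusted p = 0.939). It passed the unadjusted threshold after quantile normalization (−1.88) and with genes above the median signal only, but not in the main fit. The other probe sets of *Atr* gave 0.36 and 1.92 for the same contrast, in the opposite direction. *Atm* averaged 9.15, *Brca2* 8.62, *Fancd2* 8.40, *Chek1* 8.09 and *Chek2* 7.84, and *Brca1* was near background at 7.08.

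In the p53 axis, *Mdm2*, the ubiquitin ligase that holds p53 down, averaged 10.39 (SD 0.72, n = 12). After antagomir-21, *Mdm2* was at 11.33 and 9.31 with miR-21 exosomes and 10.92 and 11.56 with GFP exosomes, after scramble at 10.63 and 9.76 with miR-21 exosomes and 9.23 and 10.40 with GFP exosomes, and after lipofectamine at 10.54 and 10.46 with miR-21 exosomes and 10.01 and 10.59 with GFP exosomes. *Mdm2* was highest on 1 array of antagomir-21 with GFP exosomes and lowest on 1 of scramble with GFP exosomes. *Gadd45a*, a growth arrest gene induced by p53, averaged 8.37 (SD 1.45). After antagomir-21, *Gadd45a* was at 6.73 and 9.56 with miR-21 exosomes and 9.40 and 7.73 with GFP exosomes, after scramble at 6.53 and 8.67 with miR-21 exosomes and 6.02 and 9.39 with GFP exosomes, and after lipofectamine at 7.16 and 10.14 with miR-21 exosomes and 9.83 and 9.30 with GFP exosomes. The 3 *Gadd45a* values below the trough came from 3 groups, and in each the other array lay above it.

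Antagomir-21 was compared with scramble under each exosome type, the comparison that addresses silencing of miR-21. With GFP exosomes 1 of 38 genes, *Brca1*, passed the methods' threshold of an unadjusted p under 0.05, as did 5.38% of all 18193 genes, and the median log2 fold change was −0.40 over the 38 genes and 0.03 over all genes. With miR-21 exosomes 2 of 38, *Chek1* and *Bub1b*, passed it, against 5.3% of all genes, with medians of 0.02 and −0.05. Over both exosome types, with exosome type as a term, 1 of 38, *Bub1b*, passed it, against 4.58% of all genes. After Benjamini-Hochberg adjustment (limma) 0 of 38 and 0% of all genes passed in these and in all other comparisons below. With 2 arrays against 2 an exact permutation test of a single gene cannot give a p below 0.33.

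*Brca1*, a scaffold of homologous recombination, carried the only call with GFP exosomes. After antagomir-21, *Brca1* was at 8.33 and 9.33 with miR-21 exosomes and 3.21 and 3.0 with GFP exosomes, after scramble at 6.26 and 8.12 with miR-21 exosomes and 9.11 and 7.43 with GFP exosomes, and after lipofectamine at 6.28 and 7.99 with miR-21 exosomes and 8.39 and 7.51 with GFP exosomes. Both antagomir-21 arrays with GFP exosomes lay far below the trough and apart from all others. *Brca1* averaged 3.10 ± 0.15 (SD, n = 2) after antagomir-21 and 8.27 ± 1.18 (SD, n = 2) after scramble with GFP exosomes, a log2 difference of −5.17 (SE 1.06, limma adjusted p = 0.698). With miR-21 exosomes the difference was 1.64 in the opposite direction. The other 3 probe sets of *Brca1* gave −1.46, 1.40 and −0.24 with GFP exosomes, and the mean of all 4 gave −1.36 (SE 0.99, adjusted p = 0.967 in limma), short of the threshold before adjustment too.

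*Chek1*, which encodes the kinase CHK1, differed with miR-21 exosomes. After antagomir-21, *Chek1* was at 4.05 and 4.13 with miR-21 exosomes and 8.94 and 8.93 with GFP exosomes, after scramble at 8.96 and 9.88 with miR-21 exosomes and 9.42 and 7.33 with GFP exosomes, and after lipofectamine at 9.77 and 9.04 with miR-21 exosomes and 8.01 and 8.66 with GFP exosomes. Both arrays of antagomir-21 with miR-21 exosomes, and no others, lay below the trough. Their mean was 4.09 ± 0.05 (SD, n = 2), against 9.42 ± 0.65 (SD, n = 2) after scramble with the same exosomes, a difference of −5.33 (SE 0.94, limma adjusted p = 0.55). The other 4 probe sets of *Chek1* gave −0.56, −0.47, −2.61 and −0.24. The mean of all 5 gave −1.84 (SE 0.76, adjusted p = 0.91 in limma), which still passed the threshold before adjustment.

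*Bub1b*, a spindle checkpoint kinase, was called with miR-21 exosomes and over both exosome types. After antagomir-21, *Bub1b* was at 4.93 and 7.51 with miR-21 exosomes and 5.86 and 5.17 with GFP exosomes, after scramble at 9.46 and 9.18 with miR-21 exosomes and 6.21 and 8.10 with GFP exosomes, and after lipofectamine at 9.50 and 8.43 with miR-21 exosomes and 8.76 and 9.02 with GFP exosomes. Arrays of antagomir-21 and scramble did not overlap with GFP exosomes nor with miR-21 exosomes. For 2 against 2 arrays such a gap reaches an exact permutation p of 0.33 only. The share of all genes with it was not counted. The log2 fold change was −3.10 (SE 1.08, limma adjusted p = 0.789) with miR-21 exosomes, −1.64 with GFP exosomes, which did not pass, and −2.37 (SE 0.83, adjusted p = 0.951) over both. The first of these was −1.81 without replicate 1 of antagomir-21 with miR-21 exosomes and −2.96 without replicate 1 of scramble with miR-21 exosomes, neither past the threshold. The value over both types was −1.71 without the same antagomir-21 array, −2.17 without the same scramble array and −2.14 without replicate 2 of scramble with GFP exosomes, again short of it. The other 2 probe sets gave 0.71 and −1.94 with miR-21 exosomes, and the mean of all 3 gave −1.44 (SE 0.80, limma adjusted p = 0.985) with miR-21 exosomes and −1.17 over both, neither past the threshold. An unpaired test on the 4 arrays also ended the call with miR-21 exosomes.

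**Figure D2:**
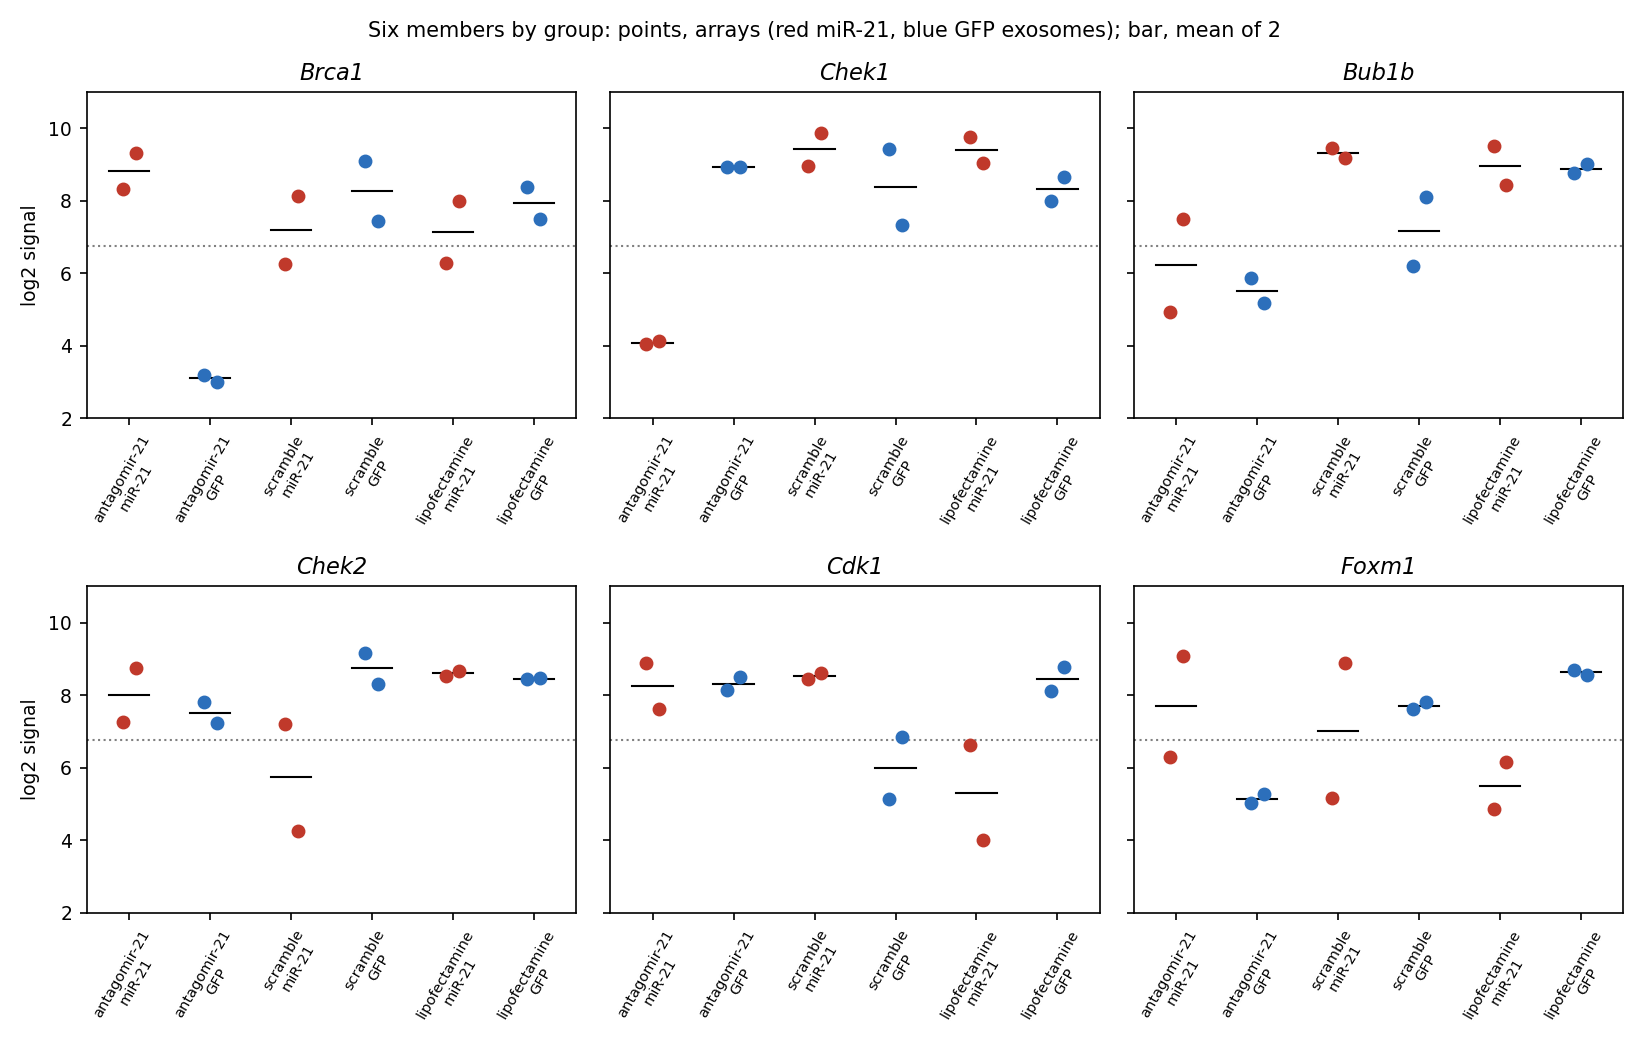
Log2 signal of 6 genes with a call, by group (points, arrays, red miR-21 and blue GFP exosomes; bars, mean of 2; dotted line, the trough at 6.75). The low *Brca1* values sit in antagomir-21 with GFP exosomes (mean 3.10) and the low *Chek1* values in antagomir-21 with miR-21 exosomes (mean 4.09).

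To address supply by exosomes, miR-21 exosomes were compared with GFP exosomes after each transfection. After antagomir-21, 2 of 38 genes passed the unadjusted threshold (*Brca1* and *Chek1*), against 5.68% of all genes. After scramble, 2 of 38 passed it (*Cdk1* and *Chek2*), against 5.7% of all genes. After lipofectamine, 2 of 38 passed it (*Cdk1* and *Foxm1*), against 3.84% of all genes. When all 12 arrays were fitted with a term for transfection, 0 of 38 passed it, against 5.36% of all genes. In that fit 24 of the 38 were lower and 14 higher with miR-21 exosomes (median −0.19). Of all 18193 genes 9281 were lower and 8912 higher (median −0.02). The medians after antagomir-21, scramble and lipofectamine were 0.09, −0.10 and −0.05. Over all transfections *Mcm4* passed the unadjusted threshold after quantile normalization (−1.03), after median centring (−1.23) and with genes above the median signal only (−1.02). It did not pass with the mean of all probe sets or with a replicate block.

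After antagomir-21 *Brca1* was higher with miR-21 exosomes, at 8.83 against 3.10 with GFP exosomes, a log2 difference of 5.72 (SE 1.06, limma adjusted p = 0.516). *Chek1* ran the other way, at 4.09 against 8.94, a difference of −4.85 (SE 0.94, adjusted p = 0.516). These contrasts share the antagomir-21 arrays with those against scramble. The means of all probe sets gave 1.84 for *Brca1* and −1.13 for *Chek1*, neither past the threshold.

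*Cdk1*, the kinase of mitotic entry, was called after 2 transfections in opposite directions. After antagomir-21, *Cdk1* was at 8.88 and 7.62 with miR-21 exosomes and 8.14 and 8.49 with GFP exosomes, after scramble at 8.43 and 8.6 with miR-21 exosomes and 5.12 and 6.83 with GFP exosomes, and after lipofectamine at 6.61 and 4.0 with miR-21 exosomes and 8.11 and 8.79 with GFP exosomes. Low values stood in scramble with GFP exosomes and in lipofectamine with miR-21 exosomes. The log2 fold change of miR-21 against GFP exosomes was 2.54 (SE 1.08, limma adjusted p = 0.843) after scramble and −3.14 (SE 1.08, adjusted p = 0.999) after lipofectamine. After scramble it was 1.69 without replicate 1 with GFP exosomes, and 2.63 and 2.46 without replicate 1 or 2 with miR-21 exosomes, all short of the threshold. It also fell short after quantile normalization (2.50), the normalization named in the methods, and after median centring (2.35). After lipofectamine it was −1.84 without replicate 2 with miR-21 exosomes and −2.80 without replicate 2 with GFP exosomes, also short of it.

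*Chek2*, which encodes the kinase CHK2, was called after scramble. After antagomir-21, *Chek2* was at 7.27 and 8.74 with miR-21 exosomes and 7.80 and 7.22 with GFP exosomes, after scramble at 7.20 and 4.26 with miR-21 exosomes and 9.17 and 8.30 with GFP exosomes, and after lipofectamine at 8.53 and 8.65 with miR-21 exosomes and 8.44 and 8.47 with GFP exosomes. The one value below the trough was replicate 2 of scramble with miR-21 exosomes. *Chek2* averaged 5.73 ± 2.08 (SD, n = 2) with miR-21 exosomes and 8.74 ± 0.62 (SD, n = 2) with GFP exosomes after scramble, a log2 difference of −3.01 (SE 1.08, limma adjusted p = 0.795). It was −1.53 without that array and −2.57 without replicate 1 of scramble with GFP exosomes, neither past the threshold.

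*Foxm1* was called after lipofectamine. After antagomir-21, *Foxm1* was at 6.29 and 9.08 with miR-21 exosomes and 5.03 and 5.26 with GFP exosomes, after scramble at 5.15 and 8.88 with miR-21 exosomes and 7.61 and 7.81 with GFP exosomes, and after lipofectamine at 4.85 and 6.15 with miR-21 exosomes and 8.68 and 8.56 with GFP exosomes. Low *Foxm1* values were spread over 4 groups. The log2 fold change of miR-21 against GFP exosomes after lipofectamine was −3.13 (SE 1.32, limma adjusted p = 0.999). It fell short of the threshold without replicate 1 or 2 with GFP exosomes (−3.07 and −3.18) and without replicate 1 with miR-21 exosomes (−2.48). The other 3 probe sets gave 6.69, −0.24 and 1.84, and the mean of all 4 was 1.29, with the direction turned.

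**Figure D3:**
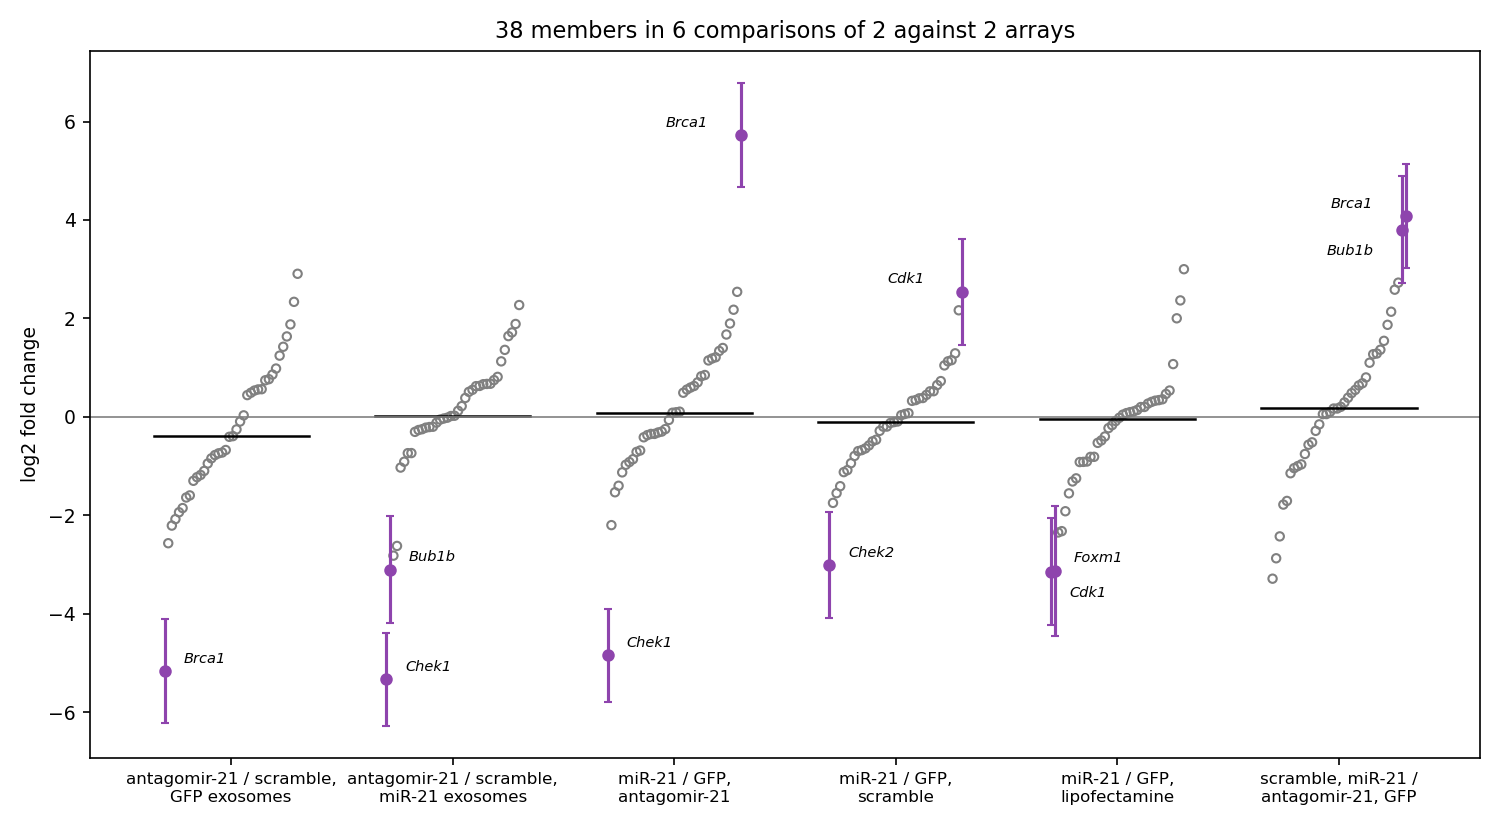
Log2 fold changes of the 38 genes (circles, sorted) in 6 comparisons of 2 against 2 arrays, with the group named first over the second. Filled points with SE bars passed an unadjusted p of 0.05, and black lines are medians, which lie between −0.40 and 0.19.

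Scramble with miR-21 exosomes was set against antagomir-21 with GFP exosomes, a pair that differs in both the oligonucleotide and the exosomes. In this comparison 2 of 38 genes passed the unadjusted threshold, against 7.17% of all genes. They were *Brca1* at 7.19 against 3.10, a difference of 4.08 (SE 1.06, limma adjusted p = 0.314), and *Bub1b* at 9.32 against 5.52, a log2 difference of 3.80 (SE 1.08, adjusted p = 0.39). With the mean of all probe sets the fold change of *Brca1* was 3.16 and passed the unadjusted threshold, and that of *Bub1b* was 1.33 and did not. Scramble against lipofectamine over both exosome types gave 0 of 38, against 4.42% of all genes.

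Whether the exosome effect differed between antagomir-21 and scramble was tested by the interaction. The unadjusted threshold was passed by 3 of 38 genes, *Brca1*, *Chek1* and *Chek2*, against 5.36% of all genes. The difference of the exosome effects was 6.81 (SE 1.50, limma adjusted p = 0.593) for *Brca1*, −5.89 (SE 1.33, adjusted p = 0.593) for *Chek1* and 3.50 (SE 1.53, adjusted p = 0.92) for *Chek2*. For *Chek2* it ran from 2.02 to 4.97 when 1 array was left out and fell short of the threshold without replicate 1 or 2 of scramble with GFP exosomes (3.06 and 3.93), replicate 1 or 2 of antagomir-21 with GFP exosomes (3.79 and 3.21), replicate 2 of scramble with miR-21 exosomes (2.02) and replicate 2 of antagomir-21 with miR-21 exosomes (2.76). For any difference among the 6 groups, 4 of 38 genes passed, against 5.96% of all genes: *Bub1b*, *Cdk1*, *Brca1* and *Chek1*.

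Different probe sets of *Brca1* and of *Chek1* gave different patterns. The other 3 of *Brca1* gave interactions of −1.23, −5.43 and 0.04, and the other 4 of *Chek1* gave −2.90, −3.17, 2.06 and −1.22. Their means over the arrays were 6.33 to 6.52 for *Brca1* and 4.55 to 7.46 for *Chek1*, all near background. In all, 28 of the 38 genes had more than 1 probe set (up to 5, and 94 over all genes described), and 10 had 1.

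**Figure D4:**
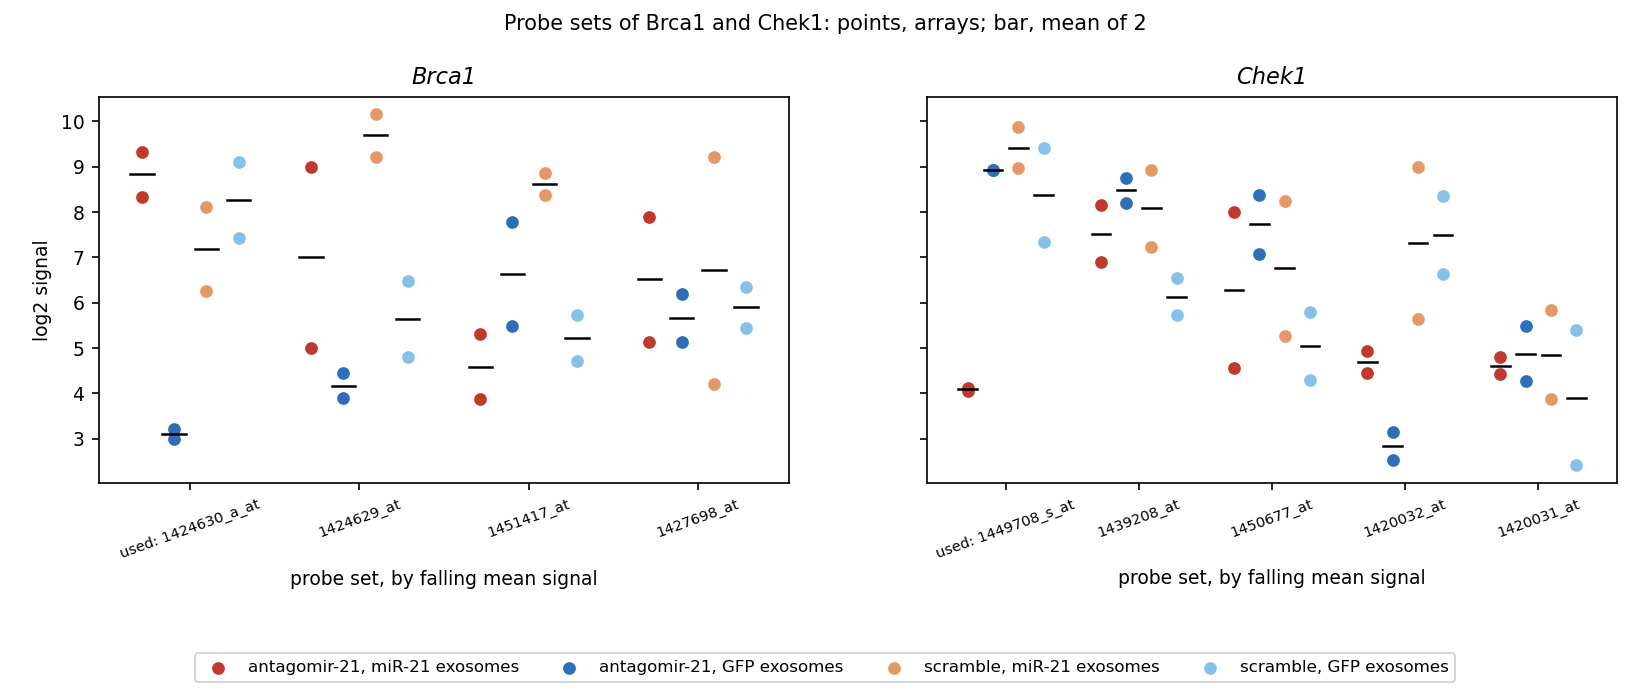
Log2 signal of each probe set of *Brca1* and *Chek1* (x axis, by falling mean, the set used marked) in 4 groups (points, arrays; bars, mean of 2). The gap of the *Brca1* set used with GFP exosomes, 3.10 after antagomir-21 against 8.27 after scramble, stood at −1.46, 1.40 and −0.24 in the other 3 sets.

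A second probe set of *Top2a*, chosen for description after its values had been seen, separated the exosome types. It averaged 7.57, near background, and lay between 5.79 and 6.67, below the trough, on the 6 arrays with miR-21 exosomes. On the 6 with GFP exosomes it lay between 7.76 and 9.60. It was 1 of 94 probe sets of the 38 genes (1.06%) without overlap, against 0.309% of 34945 probe sets in all. The brighter *Top2a* probe set, which stands for the gene above, averaged 9.71 ± 1.24 with miR-21 exosomes and 10.41 ± 0.52 with GFP exosomes (SD, n = 6 each), a difference of −0.70 (SE 0.63, limma adjusted p = 0.945), and its remaining probe set overlapped between the types. The log2 fold changes of the second probe set were −2.47 after antagomir-21, −3.03 after scramble and −2.14 after lipofectamine.

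*Mki67*, *Top2a* and *Kif11* had a like order over the arrays. After antagomir-21, *Top2a* was at 8.68 and 11.16 with miR-21 exosomes and 10.10 and 9.57 with GFP exosomes, after scramble at 10.29 and 9.58 with miR-21 exosomes and 10.54 and 10.61 with GFP exosomes, and after lipofectamine at 7.91 and 10.64 with miR-21 exosomes and 11.12 and 10.53 with GFP exosomes. After antagomir-21, *Kif11* was at 8.40 and 11.50 with miR-21 exosomes and 9.08 and 9.18 with GFP exosomes, after scramble at 10.76 and 9.10 with miR-21 exosomes and 10.02 and 10.84 with GFP exosomes, and after lipofectamine at 9.71 and 11.09 with miR-21 exosomes and 10.98 and 10.27 with GFP exosomes. Their 5 lowest values came from the same 5 arrays: replicate 1 of antagomir-21 with miR-21 exosomes, both replicates of antagomir-21 with GFP exosomes, replicate 2 of scramble with miR-21 exosomes and replicate 1 of lipofectamine with miR-21 exosomes. These were the arrays with the lowest lower quartile over all probe sets, at 5.66 or less, against 5.92 or more on the other 7. This held for 3 of 38 genes (7.89%), against 1.68% of all genes. The array order was added after the values of these 3 genes had been seen, so the shares are a description and not a test. The part of the array in these signals was not tested. The other 2 probe sets of *Kif11* averaged 7.21 and 5.70, both near background. *Pcna* did not follow that order. No comparison passed for these 4 genes. For *Mki67* antagomir-21 gave 9.90 ± 0.21 and scramble 10.67 ± 0.27 with GFP exosomes (SD, n = 2 each), a log2 difference of −0.78 (SE 0.92, limma adjusted p = 1), and miR-21 against GFP exosomes over all transfections gave −0.13 (SE 0.50, adjusted p = 0.983).

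**Figure D5:**
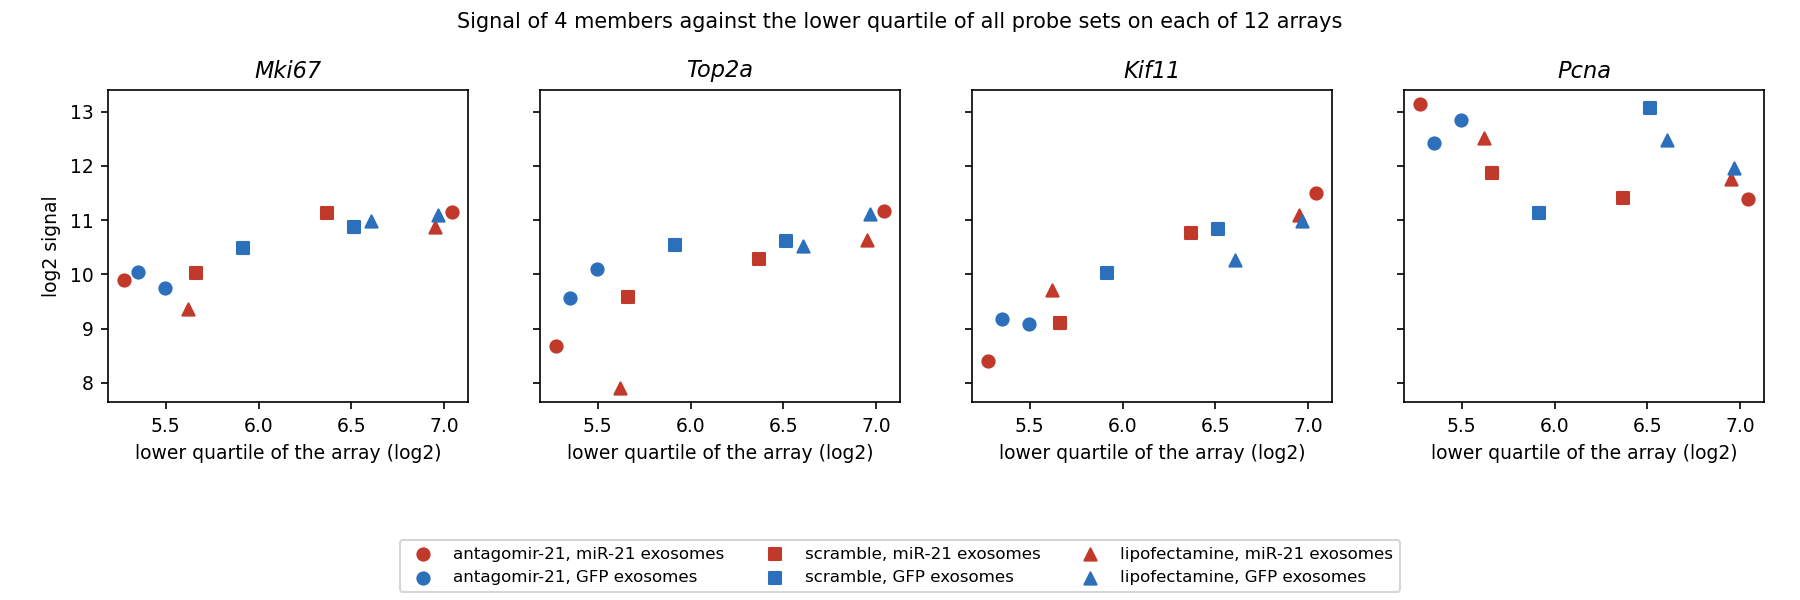
Log2 signal of *Mki67*, *Top2a*, *Kif11* and *Pcna* on each array (y axis) against the lower quartile of all probe sets on that array (x axis, log2; shapes, transfections; colors, exosomes). In the first 3 panels the 5 arrays at 5.66 or less hold the 5 lowest signals.

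Other genes of the same pathways, from lists that hold none of the 38, were also spread over the range of signals. Near background were 11 of 27 G1 regulators, 5 of 30 S phase genes, 16 of 35 genes of G2 and M phase, 8 of 37 repair genes and 11 of 23 p53 target genes. The brightest in each list were *Ccnd1*, a G1 cyclin, at 11.34, *Dnmt1*, the maintenance DNA methyltransferase, at 13.84, *Cks2*, a CDK subunit, at 11.62, *Trp53bp1*, a damage response scaffold, at 11.56 and *Sesn1*, a stress-induced p53 target, at 13.06. After antagomir-21 against scramble over both exosome types, 0 of 27 G1 regulators were higher and 1 lower at the unadjusted threshold (all genes, 1.45% higher and 3.13% lower), 1 of 30 S phase genes higher and 1 lower, 0 of 35 genes of G2 and M phase higher and 2 lower, 1 of 37 repair genes higher and 0 lower, and 1 of 23 p53 targets higher and 0 lower. *Xrcc1*, a scaffold of single-strand break repair, had the smallest p of these at 3.67 (SE 0.71, limma adjusted p = 0.705), followed by *Mybl2*, a transcription factor of G2 genes, at −3.24 (SE 0.91, adjusted p = 0.783). *Gins2*, a subunit of the replicative helicase, was at −2.58, *E2f5*, a repressor E2F, at −1.59 and *Zmat3*, a p53 target, at 2.43. With miR-21 against GFP exosomes over all transfections (all genes, 3.84% higher and 1.53% lower), 1 G1 regulator (*E2f5*, 1.21, SE 0.55, adjusted p = 0.911) and 1 S phase gene were higher, 1 S phase gene (*Pole*, a DNA polymerase subunit, −2.98, SE 0.76, adjusted p = 0.633) was lower, and no gene of the other 3 lists passed. Scramble against lipofectamine (all genes, 2.22% higher and 2.2% lower) gave 1 S phase gene higher (*Mcm10*, 2.06), 1 S phase gene lower and 1 p53 target lower (*Zmat3*, −2.33), and no gene of the other 3 lists.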

How the data were processed

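Expression was measured in PMs on 12 arrays, 2 in each of 6 groups taken from the sample labels. The values the authors deposited are log2 signals, 1 per probe set and array. The methods give the affy package (RMA background, quantile normalization, median polish), but the distributions differ between arrays (SD 2.04 to 2.48) and each has a linear trimmed mean of 496 to 499 with 2% removed at each end, so the values are not quantile normalized and their background level is unknown. The software behind the deposited values was not given in the sources used. As to amplification, NuGEN kits are named in the labels and a WT Pico kit in the methods.

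Of 45037 probe sets, 34945 carried 1 symbol in the annotation of the platform, 932 carried several and 9160 were without a listed symbol. Symbols of 34741 were looked up by the gene ID. Each gene was read by its probe set of highest mean over 12 arrays. limma 3.58.1 in R 4.3.3 (lmFit, eBayes) was fitted to 18193 genes with 6 group means and 6 residual degrees of freedom, or with transfection or exosome type as an added term for the pooled comparisons. The scripts were tested on simulated data. Adjustment was by Benjamini-Hochberg over all genes. For arrays, their number limits the precision, and p-values measure the spread between these arrays.

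Values by array are given for the highest and the lowest gene of each role class, for each gene at an unadjusted p under 0.05, and for *Top2a* and *Kif11*, which were added after their values were seen. Genes of companion lists are named by smallest p within a list or as the brightest of it. The genes and lists were chosen with earlier results of these data known, and the trough, the array order by lower quartile and the exosome effects against lipofectamine were added later. Quantile normalization, median centring, the mean of all probe sets, genes above the median signal only, a replicate block, an unpaired test and leaving out each array were tried as alternatives.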

Additional observations from a re-analysis of the deposited data

Results flagged for a closer look

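In 5 genes the difference between miR-21 and GFP exosomes differed between transfections at an unadjusted p under 0.05 by limma, 7 differences in all. Between antagomir-21 and scramble it differed by 6.81 for *Brca1*, −5.89 for *Chek1* and 3.50 for *Chek2*, which are the interactions given above. Between antagomir-21 and lipofectamine it differed by 6.54 for *Brca1* (SE 1.50, adjusted p = 0.796), −5.92 for *Chek1* (SE 1.33, adjusted p = 0.796) and 5.67 for *Foxm1* (SE 1.86, adjusted p = 0.864). Between scramble and lipofectamine it differed by 5.68 for *Cdk1* (SE 1.53, adjusted p = 1). The share of all genes past the same threshold was 5.36%, 4.83% and 3.8% in these tests, with 3, 3 and 1 of the 38 genes, and 0 genes passed after adjustment. The tests against lipofectamine were added after the values had been seen, and each pair of tests shares the arrays of 1 transfection, be it antagomir-21, scramble or lipofectamine.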

How the results depend on the processing

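Counts below are of the 38 genes at an unadjusted p under 0.05, and 0 of the 38 passed after adjustment under any alternative. Quantile normalization gave 2 genes for the antagomir (antagomir-21 against scramble) under GFP exosomes, 4 for the crossed pair (scramble with miR-21 against antagomir-21 with GFP exosomes), 1 for miR-21 against GFP exosomes over all transfections and 1 for scramble against lipofectamine. For the exosomes after scramble its count of 2 held *Atr* (−1.88) in place of *Cdk1*. Median centring gave 1 for the exosomes after scramble and 1 over all transfections. With genes above the median signal only, which leaves 23 of the 38, the counts were 0 for the antagomir under GFP exosomes and over both exosomes, 1, 1 and 0 for the exosomes after antagomir-21, scramble and lipofectamine, 1 over all transfections, 0 for the crossed pair, and 1 for any difference. The mean of all probe sets gave 1 for the antagomir under miR-21 exosomes, 0 over both exosomes, 1 for the crossed pair, 1 for the interaction and 1 for any difference, put the median level at 7.61 (all genes 7.46), and turned *Foxm1* after lipofectamine to 1.29. Under that mean 0 calls were shared for the antagomir under GFP exosomes, where *Cdk1* (2.34, higher) stood in place of *Brca1*, and for the exosomes after antagomir-21, where *E2f1* (2.18), *Atr* (1.99) and *Fancd2* (2.13), all higher, stood in place of *Brca1* and *Chek1*. An unpaired test gave 3 and 1 for the antagomir under GFP and miR-21 exosomes and 0 for the exosomes after scramble, and ended the call of *Cdk1* after lipofectamine. The cause of these shifts was not tested.

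The replicate numbers did not pair the arrays, with 15 correlations between same-numbered deviations from −0.192 to 0.167. With the replicate number as a block the count for the exosomes after scramble was 1, *Cdk1* there (2.54) and for any difference and the *Chek2* interaction (3.50) no longer passed, and no other count moved by over 1.5 times.

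Leaving out 1 array, with the lone array assumed to vary like the other groups, gave 1 to 3 genes for the antagomir under GFP exosomes, 2 to 6 with miR-21 exosomes (6 without replicate 2 of antagomir-21 with miR-21 exosomes) and 0 to 5 over both. The exosomes gave 3 to 5 after antagomir-21, 0 to 3 after scramble, 0 to 4 after lipofectamine (4 without replicate 2 with miR-21 exosomes) and 0 to 3 over all transfections. The crossed pair gave 2 to 7 (7 without replicate 1 of scramble with miR-21 exosomes), scramble against lipofectamine 0 to 1, the interaction 2 to 5 and any difference 2 to 5. The median level ran from 8.29 to 8.48.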
